A study of Mus musculus with 2 samples.

Results

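The 4 genes of the myocyte enhancer factor 2 family in the mouse, Mef2a, Mef2b, Mef2c and Mef2d, were described by their accessible chromatin in frontal cortex. They were chosen by symbol from the 21938 protein-coding genes of GENCODE release 21 for mouse, and each was followed over its gene span plus 50 kb on both sides. The data were DNase-seq, in which DNase I cuts free DNA more often than DNA held in nucleosomes. Peaks of cuts mark open promoters and enhancers. Footprints are short gaps in the cuts, and they mark bases that a bound protein may cover. There was 1 group of 2 libraries, biological replicates 1 and 2, from frontal cortex of male B6CASTF1/J mice aged 14 days, F1 hybrids of a laboratory and a wild-derived strain. Each tissue sample is labelled as coming from 3 males, and the samples, though separate, share 1 donor number, which means that part of their spread may be technical. No other treatment or genotype was present, so nothing was contrasted and no p-value was computed.

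MEF2 proteins bind an AT-rich DNA sequence through a MADS box and a MEF2 domain, and class IIa histone deacetylases hold them in a repressed state until calcium signals through kinases and the phosphatase calcineurin release them. They were first known from muscle differentiation, and in the cortex Mef2a, Mef2c and Mef2d are known for activity-dependent control of synapse number and of neuron survival. Mef2b is best known from germinal centre B cells. In whole tissue, fewer cells of a type and less accessibility per cell cannot be told apart.

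Replicate 1 held 75753 peaks with a median height of 0.848 and replicate 2 held 77035 peaks with a median height of 0.801. Heights are the authors' deposited values on a scale that was not stated. Ranks are therefore taken within a library, and means, SDs and ratios over both libraries hold only as far as their scales are alike. Peaks that overlap between the libraries by 1 bp or more made up 73.2% of replicate 1 and 71.7% of replicate 2 across the genome, and they were joined into 53644 shared regions. Coordinates are in mm10 and count from 1. A promoter is the 1000 bp on both sides of an annotated start site, and a shared region farther than that from every start site of a protein-coding gene is called distal.

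All 4 MEF2 genes were open, with a peak at a promoter, in both libraries, against 59.7% of all protein-coding genes. The tallest promoter was that of Mef2b, with heights of 9.67 in replicate 1 and 9.91 in replicate 2 (9.79 ± 0.166, SD, n = 2), but this region also covers the start of another gene. Without start sites that lie within 1000 bp of the start of another protein-coding gene, 3 of the 4 genes were open in both libraries, Mef2b being the exception. The promoter of Mef2a reached 4.20 and 5.47 (4.84 ± 0.896, SD, n = 2). That of Mef2d reached 4.56 and 5.07 (4.82 ± 0.360, SD, n = 2), inside the range of Mef2a, so that these neighbours in the order did not differ beyond their spread. Mef2c, known for its part in the maturation of cortical neurons, had the lowest promoter peak, 1.52 and 1.36 (1.44 ± 0.111, SD, n = 2), below every value of the other genes. Its values come from a different region in each library, so this SD is not the spread of 1 region. The median over all genes with a promoter peak was 2.95 in replicate 1 and 2.80 in replicate 2.

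The windows of the 4 genes held 40 shared regions. Of these, 8 lay at promoters of the MEF2 genes themselves, 5 at promoters of neighbouring protein-coding genes, and 27 were distal. The distal count was 41 in replicate 2 alone (without replicate 1) and 31 in replicate 1 alone (without replicate 2), and the shorter, stricter peak lists gave 14. Mef2a had 4 distal regions, Mef2b 6, Mef2c 7 and Mef2d 10, against a median of 2.00 over all protein-coding genes. Which gene a distal region acts on was not measured.

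**Figure D1:**
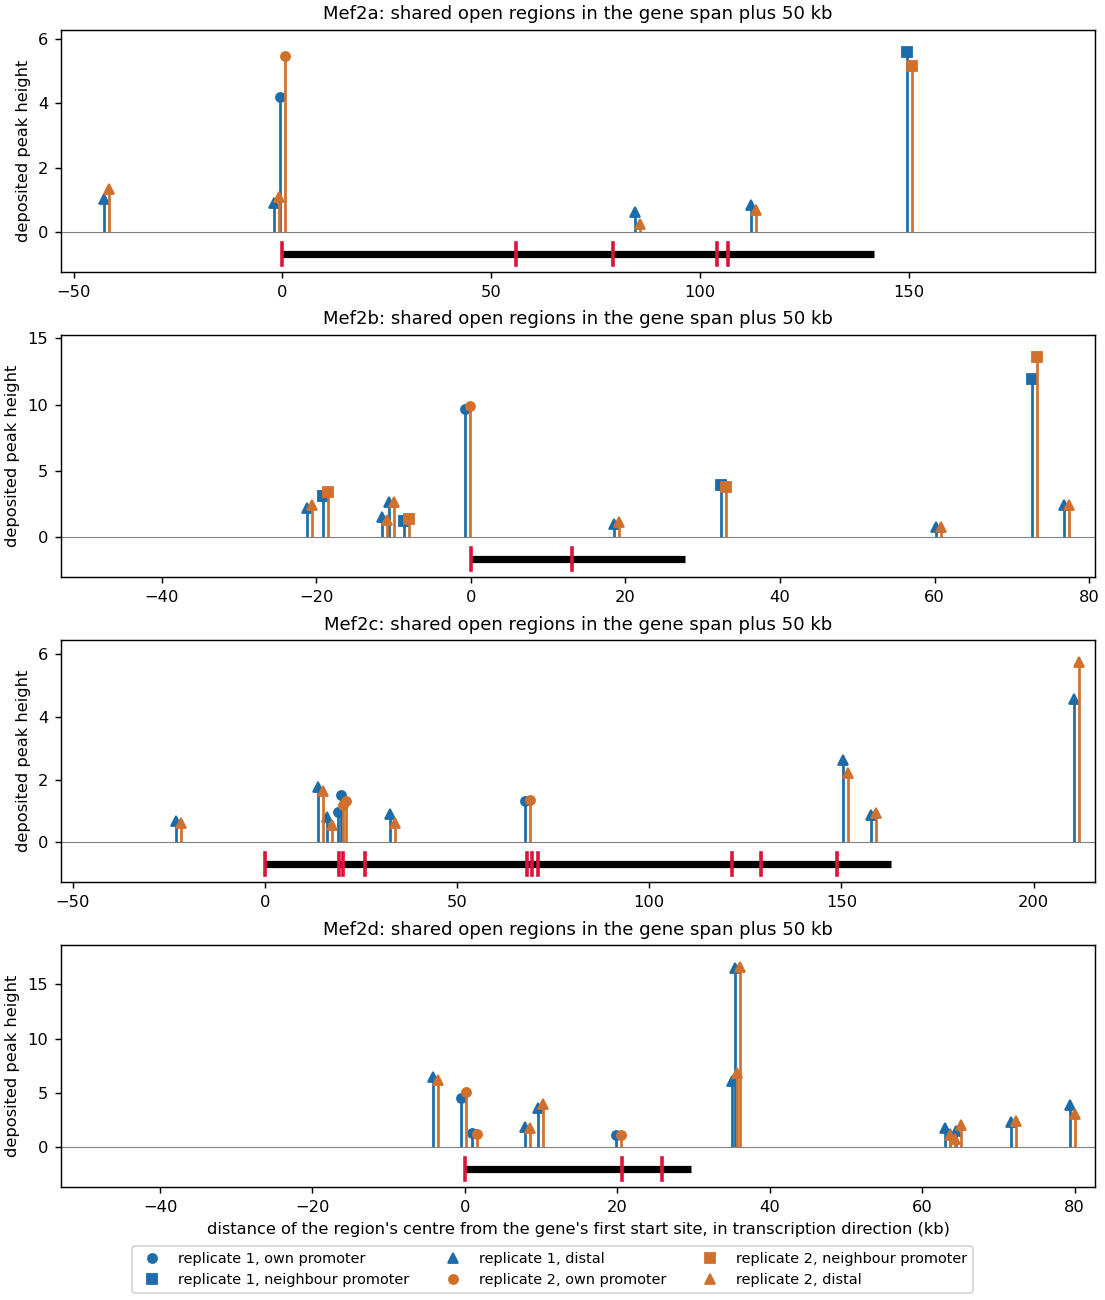
Height of each shared open region of replicate 1 (blue) and replicate 2 (orange) against the distance of its centre from the first start site of the gene, in kb along the direction of transcription. Circles mark own promoters, squares promoters of neighbouring protein-coding genes and triangles distal regions, black bars the gene and red ticks its alternative promoters. The tallest region lies 35.75 kb from the first start site of Mef2d, at 16.5 and 16.6, while the tallest region of the Mef2c window stands at 4.59 and 5.76.

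Mef2a (ENSMUSG00000030557.17, chr7:67231163-67372858, minus strand) spans 141.7 kb and has 12 annotated transcripts from 5 alternative promoters, numbered here from the 5′ end. It was open at the first of them only. Promoter 1, used by 7 transcripts of which 5 are coding, carried the shared region chr7:67372781-67373040, and promoters 2 to 5, between 55.9 and 106.7 kb into the gene, had no peak in either library. In the cut rate track no base within 1000 bp of promoters 2 to 5 was listed with a false discovery rate below 0.05, in either library. The open region overlaps the first exon, an untranslated one, and the bases just upstream of it. It was CpG-rich, with 28 CpG in 260 bp and a GC content of 65.4%. Its height exceeded that of 64.5% of the 13412 genes with a promoter peak in replicate 1 and of 76.1% of the 13683 such genes in replicate 2. It held 6 footprints in replicate 1 and 8 in replicate 2. The sequence upstream of the first exon is shown because most of the footprint bases of this promoter lie there. Here and below, capitals mark bases inside a footprint of both libraries, the sequence is that of the RefSeq mm10 reference, and it is written 5′ to 3′ on the strand of the gene.
Mef2a promoter, chr7:67372859-67373040, minus strand: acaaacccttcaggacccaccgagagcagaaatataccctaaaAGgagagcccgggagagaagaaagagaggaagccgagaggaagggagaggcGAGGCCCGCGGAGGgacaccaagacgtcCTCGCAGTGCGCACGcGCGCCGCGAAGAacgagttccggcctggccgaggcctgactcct
The last runs of capitals, split by 1 base, hold a match of the consensus of NRF1, a factor of housekeeping promoters, at chr7:67372901-67372910.

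The 4 distal regions of Mef2a stood below its promoter in both libraries. The tallest lay 42034 bp upstream of the first start site, at chr7:67414892-67415120, with heights of 1.04 and 1.33, above 61.4% and 74.1% of all peaks of these libraries. Another, 1163 bp upstream at chr7:67374021-67374320, reached 0.896 and 1.09. The region chr7:67259957-67260127, in an intron, reached 0.848 and 0.684. It also lies within Lysmd4, a LysM domain gene on the opposite strand whose span overlaps that of Mef2a. The promoter of Lysmd4 itself, 8503 bp beyond the 3′ end of Mef2a, was open at 5.60 and 5.15, beside 4.20 and 5.47 at Mef2a. All genes were cut into 10 equal groups by length, and Mef2a fell in the group of the longest genes. The 2193 genes of this group had a median of 5 distal regions, and 37.1% of them had fewer than Mef2a. With the stricter peak lists, the Mef2a window had 0 distal shared regions.

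Mef2b (ENSMUSG00000079033.10, chr8:70139711-70167488, plus strand) spans 27.8 kb and has 5 transcripts from 2 alternative promoters. Its tall promoter peak belongs to promoter 1, which only 1 transcript, Mef2b-205, uses. The region, chr8:70139141-70139480, ends 231 bp before that start site. It covers the start of Rfxank at position 70139154 on the opposite strand, a gene for a subunit of the RFX complex of MHC class II promoters. It also ends just short of the start of Borcs8 at position 70139499, a gene for a subunit of the lysosome-positioning BORC complex. The height of 9.67 and 9.91, above 93.1% and 93.3% of the genes with a promoter peak, therefore cannot be assigned to 1 of these 3 genes. Promoter 2, at position 70152778, serves the other 4 transcripts, all coding. It had no peak and no listed base in replicate 1, and a peak of 0.976 in replicate 2, chr8:70152613-70152779, with a lowest false discovery rate of 0.00300. The libraries thus differed over whether the start used by most Mef2b transcripts was called open. The shared promoter is shown because its height sets the place of Mef2b in the order above.
Region between Rfxank and Borcs8 with Mef2b promoter 1, chr8:70139155-70139454, plus strand: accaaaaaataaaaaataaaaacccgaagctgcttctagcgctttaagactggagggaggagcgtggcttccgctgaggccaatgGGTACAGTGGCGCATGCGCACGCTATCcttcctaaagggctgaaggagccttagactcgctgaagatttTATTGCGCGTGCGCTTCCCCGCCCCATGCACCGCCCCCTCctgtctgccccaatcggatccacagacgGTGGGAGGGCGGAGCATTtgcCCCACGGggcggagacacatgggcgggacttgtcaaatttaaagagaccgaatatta
Its capitals cover 92 of 300 bases. They include 2 matches of the NRF1 consensus, gcgcatgcgc at chr8:70139249-70139258 and gcgcacgcgc, read on the minus strand, at chr8:70139313-70139322. They also include matches of the Sp/KLF consensus GGGCGG on both strands.

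The Mef2b window is gene-dense, and 4 of its 11 shared regions lay at promoters of other genes. The promoter of Slc25a42, a mitochondrial coenzyme A carrier, was the tallest at 11.9 and 13.6. That of Tmem161a, a membrane protein gene, reached 3.94 and 3.79. The promoter of Ncan, for the brain proteoglycan neurocan, reached 3.09 and 3.40, and that of Nr2c2ap 1.23 and 1.41. The 3 tallest distal regions all lay outside Mef2b. One, chr8:70129341-70129640, stood 10071 bp upstream at 2.64 in both libraries. Another, chr8:70216561-70216880, stood beyond the 3′ end at 2.46 in both. The third, chr8:70118741-70119000, lay within Ncan at 2.19 and 2.47. Among the 2194 genes of its length group, 90.7% had fewer distal regions than Mef2b. Without replicate 1 the window held 11 distal peaks, and with flanks of 10 kb it held 1 distal shared region.

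Mef2c (ENSMUSG00000005583.16, chr13:83504034-83667080, plus strand) spans 163.0 kb and has 31 transcripts from 10 alternative promoters, the most of the family. It was the only one of the 4 genes without a called peak at its most upstream promoter. The region at that of Mef2b cannot be told apart from those of Rfxank and Borcs8. Promoter 1, the start of 6 coding transcripts, had no peak and no base listed in the cut rate track of either library. Of the 9254 protein-coding genes with at least 2 alternative promoters and at least 1 of them open, the first one was without a shared region in 11.0%. The 300 bp around promoter 1 are AT-rich, with 35.9% GC and 1 CpG. By the same measure the open promoter 2 had 42.2% GC and 5 CpG, and promoter 3 had 41.2% and 4. Promoter 5, also open, had 48.5% and 4. The CpG counts given below are over whole open regions and are not comparable with these.

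The accessible starts of Mef2c lay 19.4 to 20.3 kb and 68.3 kb into the gene. Promoter 2 (1 coding transcript) and promoter 3 (10 transcripts, 8 of them coding) share a pair of regions. The region chr13:83524261-83524940 spans 680 bp with 42 CpG and reached 1.52 and 1.33. Its neighbour chr13:83523581-83523957, in the intron between these starts, reached 0.955 and 1.18. Promoter 5 (2 coding transcripts) opened at chr13:83572081-83572474, with 1.31 and 1.36, and held 6 CpG in 394 bp. The region of promoter 3 was the taller of these in replicate 1 and that of promoter 5 in replicate 2, so the promoter height of Mef2c given above comes from a different region in each library. Promoters 4 and 6 to 10 had no peak in either library. The best promoter peak of Mef2c exceeded 26.1% of the genes with a promoter peak in replicate 1 and 24.3% in replicate 2. The CpG-rich stretch before promoter 3 is shown with its few shared footprint bases.
Mef2c between promoters 2 and 3, chr13:83523595-83523894, plus strand: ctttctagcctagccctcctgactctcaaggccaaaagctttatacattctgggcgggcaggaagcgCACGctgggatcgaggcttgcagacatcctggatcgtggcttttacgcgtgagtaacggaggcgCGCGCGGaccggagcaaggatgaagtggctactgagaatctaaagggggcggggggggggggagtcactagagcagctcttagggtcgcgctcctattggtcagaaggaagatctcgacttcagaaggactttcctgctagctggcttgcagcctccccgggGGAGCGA
Only 18 of these 300 bases lay in a footprint of both libraries, against 43 of the 182 bases shown for Mef2a.

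The tallest regions in the Mef2c window were not promoters. The first, chr13:83715061-83715300, lay 47981 bp beyond the 3′ end of the gene and reached 4.59 and 5.76 (SD 0.833), taller than any Mef2c promoter region in both libraries. In replicate 1 its lowest false discovery rate, 3.27e-05, was weaker than the 2.06e-05 of the promoter 3 region. In replicate 2 it was stronger, at 3.75e-13 against 2.35e-06. The second, chr13:83654981-83655160, in an intron 151.04 kb from the first start site, reached 2.63 and 2.22. The third, chr13:83518441-83518620, in the intron upstream of promoter 2, reached 1.77 and 1.64. Both of the tallest had continuous stretches of footprint in both libraries, and they are shown for that reason.
Mef2c distal region beyond the 3′ end, chr13:83715061-83715300, plus strand: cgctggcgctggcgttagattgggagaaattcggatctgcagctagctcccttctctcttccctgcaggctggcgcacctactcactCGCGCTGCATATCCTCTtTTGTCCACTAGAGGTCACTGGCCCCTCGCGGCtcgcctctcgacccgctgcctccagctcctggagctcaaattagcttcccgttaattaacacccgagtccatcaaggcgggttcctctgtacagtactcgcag
Mef2c intronic region, chr13:83654981-83655160, plus strand: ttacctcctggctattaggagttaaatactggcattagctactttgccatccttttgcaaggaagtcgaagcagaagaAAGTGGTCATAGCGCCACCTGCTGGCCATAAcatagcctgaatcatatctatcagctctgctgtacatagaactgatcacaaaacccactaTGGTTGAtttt
In the intronic region the longest run of capitals holds the 1 exact match of the CTCF consensus among the 40 regions, at chr13:83655072-83655083 on the minus strand. CTCF is the insulator protein that anchors chromatin loops. Of all shared regions, 6.13% hold such a match, and near matches were not searched for. Mef2c had 7 distal regions, more than 65.5% of the 2193 genes in its length group, which is also that of Mef2a. The count was 9 without replicate 1, 11 without replicate 2, and 3 with the stricter peak lists.

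Mef2d (ENSMUSG00000001419.17, chr3:88142372-88172086, plus strand) spans 29.7 kb and has 7 transcripts from 3 alternative promoters. It combined a promoter of middle height with the most distal regions of the family, an order that depends on which start sites count as promoters. Promoter 1 (5 transcripts, 4 coding) carried chr3:88142121-88142360, which ends 12 bp before the first start site and has a GC content of 73.8%. Its heights of 4.56 and 5.07 exceeded 68.2% and 73.2% of the genes with a promoter peak. A smaller region in an intron, chr3:88143521-88143694, reached 1.30 and 1.24. Promoter 2, the start of 1 non-coding transcript, had a region of 1.11 and 1.16, and promoter 3 had no peak in either library.
Mef2d promoter, chr3:88142121-88142360, plus strand: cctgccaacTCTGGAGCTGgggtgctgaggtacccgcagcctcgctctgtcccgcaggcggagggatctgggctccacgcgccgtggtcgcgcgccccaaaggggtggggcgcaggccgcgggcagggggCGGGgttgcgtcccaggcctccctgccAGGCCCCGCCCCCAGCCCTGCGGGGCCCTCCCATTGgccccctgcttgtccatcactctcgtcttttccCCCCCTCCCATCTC
This promoter is shown because it is the most GC-rich of the 40 regions. GGGCGG, the Sp/KLF consensus, lies within the capitals on the minus strand at chr3:88142283-88142288 and partly within them at chr3:88142248-88142253.

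Mef2d had 10 distal regions, or 0.77 per 10 kb, a higher density than in 99.4% of protein-coding genes. The median over all genes was 0.134 per 10 kb. The count was 16 without replicate 1 and 5 with flanks of 10 kb. It was 3 when start sites of non-coding genes were also treated as promoters, below the 4 of Mef2a, 6 of Mef2b and 7 of Mef2c counted in that way. The tallest region of all 4 windows, chr3:88178001-88178240, stood beyond the 3′ end at 16.5 and 16.6. Its neighbour chr3:88177621-88177920 reached 6.07 and 6.82 and covers position 88177785, the start of 1700113A16Rik, an antisense non-coding gene that runs toward Mef2d. Both lie within 1000 bp of that start. Farther downstream, the regions chr3:88205481-88205892, chr3:88206303-88206380, chr3:88207021-88207360, chr3:88214241-88214600 and chr3:88222001-88222280 lay within 1000 bp of starts of the non-coding gene Gm3764, and chr3:88214241-88214600 also near Mir9-1, a hairpin of the neural microRNA miR-9. Their heights lay between 0.751 and 3.92. Upstream, chr3:88138341-88138600 stood 3772 bp from the first start site at 6.44 and 6.25, taller than the promoter in both libraries. It contains TGACGTCA, the full cyclic AMP response element that CREB binds, at chr3:88138441-88138448, partly covered by a footprint in replicate 1 and by none in replicate 2. The tallest region is shown because nearly the same bases were protected in both libraries.
Mef2d distal region beyond the 3′ end, chr3:88178001-88178240, plus strand: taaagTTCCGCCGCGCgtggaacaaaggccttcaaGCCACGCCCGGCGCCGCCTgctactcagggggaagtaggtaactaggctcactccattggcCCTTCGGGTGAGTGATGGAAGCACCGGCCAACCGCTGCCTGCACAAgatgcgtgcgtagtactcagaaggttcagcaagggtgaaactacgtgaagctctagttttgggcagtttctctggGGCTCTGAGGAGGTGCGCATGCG
Footprints covered 42.5% of it in each library and 41.2% in both.

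Across the family, 7 of the 20 alternative promoters had a shared region, and over all protein-coding genes 32.2% of alternative promoters did. The alternative promoters without a shared region were mostly those of the long genes, 4 in Mef2a and 7 in Mef2c. The open ones were promoter 1 of Mef2a, Mef2b and Mef2d, promoters 2, 3 and 5 of Mef2c, and promoter 2 of Mef2d. Which transcript is made was not measured.

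**Figure D2:**
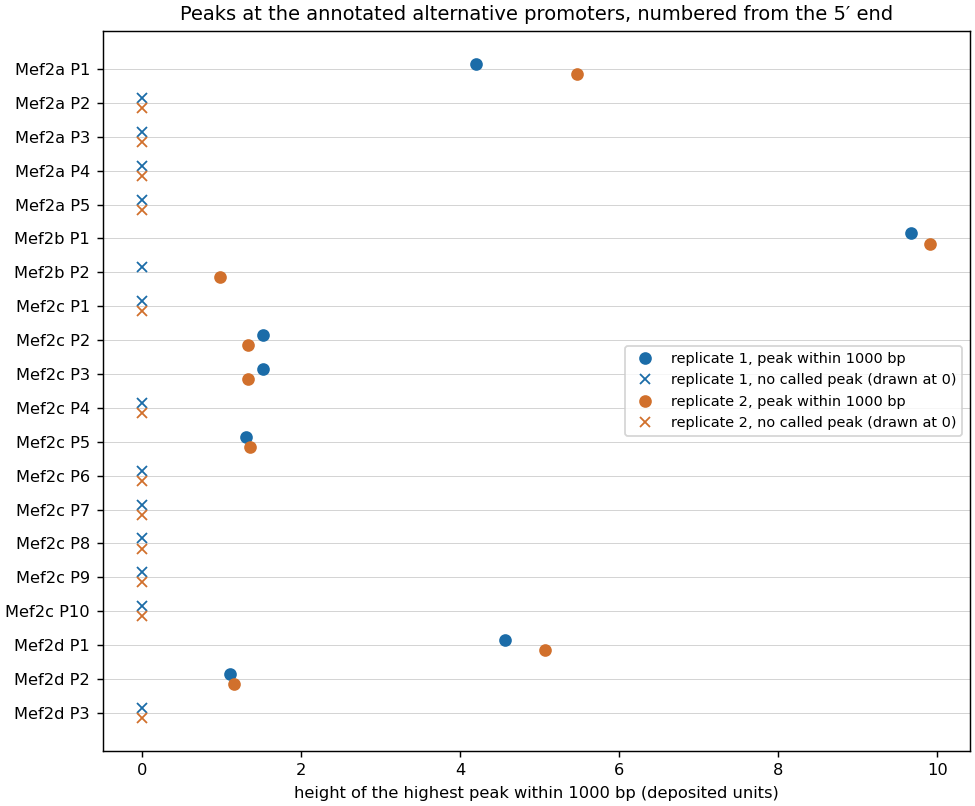
Height of the highest peak within 1000 bp of each of the 20 alternative promoters (P1, P2 and so on from the 5′ end), for replicate 1 (blue) and replicate 2 (orange). Crosses at 0 mark starts with no called peak; promoters 2 and 3 of Mef2c share a region, and promoter 2 of Mef2b has a peak in replicate 2 alone, at 0.976.

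Footprints were called in both libraries in 35 of the 40 shared regions (87.5%), against 77.0% of all shared regions. The exact binomial interval of 73.2% to 95.8% (95%, counting error over regions that are not independent) includes the value for all regions. The 40 regions held 127 footprints in replicate 1 and 154 in replicate 2, with median lengths of 10 and 11 bp. Over the whole windows, inside and outside peaks, 61.4% of the 140 footprints of replicate 1 and 38.8% of the 206 of replicate 2 overlapped a footprint of the other library. Across the genome 54.8% of footprints did so in replicate 1 and 41.3% in replicate 2. The exact 95% intervals over the windows, 52.8% to 69.5% and 32.1% to 45.9%, include these values. The tall promoters had more bases in a footprint of both libraries than the low ones: 27.9% of the Mef2b region, 26.7% of the Mef2d region and 23.5% of the Mef2a region, but 4.26% at promoter 3 and 2.28% at promoter 5 of Mef2c. Height moves with these shares, and its part in them was not tested.

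**Figure D3:**
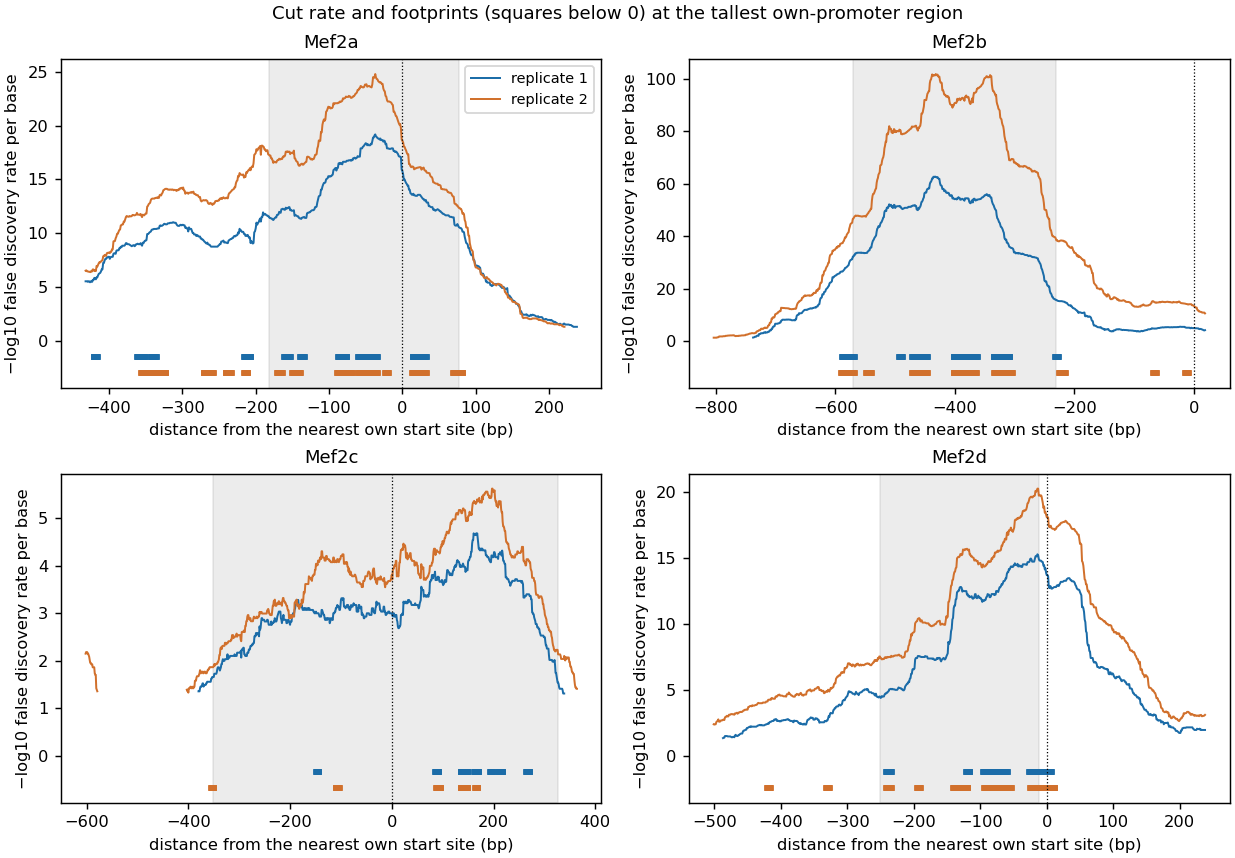
False discovery rate of the cut rate per base (−log10, vertical) against the distance in bp from the nearest own start site, along the direction of transcription, at the tallest own-promoter region of each MEF2 gene. Blue is replicate 1 and orange replicate 2, grey shading the shared region and squares below 0 footprints; for Mef2b the start lies 231 bp beyond the region, and the lowest rates were 2.17e-63 and 1.82e-102, against 2.06e-05 and 2.35e-06 at Mef2c.

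The MEF2 consensus itself was found in 2 of the 40 regions, or 5%, against 2.50% of all shared regions. Both matches also met the stricter form of the consensus, which 0.787% of all shared regions hold. One, ctatttttag on the plus strand at chr7:67372851-67372860, lies across the first start site of Mef2a, position 67372858. The other lies in the Mef2b window, 10991 bp upstream of the gene, in a distal region of height 1.54 and 1.28, which is shown to place the match.
Mef2b distal region with a MEF2 consensus match, chr8:70128492-70128720, plus strand: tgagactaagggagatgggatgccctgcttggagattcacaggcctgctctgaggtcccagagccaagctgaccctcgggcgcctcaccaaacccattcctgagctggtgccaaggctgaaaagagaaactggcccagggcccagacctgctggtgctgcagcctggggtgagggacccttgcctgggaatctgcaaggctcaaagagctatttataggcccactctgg
The match, ctatttatag at chr8:70128700-70128709, lies near the 3′ end of this sequence, which has no base in a footprint of both libraries. Here a match counts as in a footprint when its middle base is, and neither match was, in either library. Across the genome a MEF2 match in a footprint of both libraries was found in 14 of the 53644 shared regions. A match is a string of letters and not a binding site, and its absence from the other 38 regions says nothing about MEF2 binding.

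Of the 13 consensus sequences searched on both strands, Sp/KLF and NRF1 most often had a match in a footprint of both libraries. Sp/KLF (GGGCGG) matched 13 of 40 regions (32.5%), against 29.4% of all shared regions, and in 8 of the 40 a match lay in a footprint of both libraries, against 11.7% of all shared regions. NRF1 matched 4 of 40 (10%), against 3.50%, with 3 in footprints of both libraries, against 2.48% of all shared regions. These were the promoters of Mef2a, of Mef2b with its neighbours, and of Ncan. The EGR consensus, named for activity-induced zinc finger factors, matched 3 of 40, against 3.01%. ETS (CCGGAAG) matched 3, against 6.46%. CAGATG, an E-box of neurogenic factors, matched 11 of 40 (27.5%), against 23.2%, and CAGCTG matched 8 (20%), against 23.5%. Neither E-box had a match in a footprint of both libraries, against 2.00% of all shared regions for CAGCTG and 2.19% for CAGATG. AP-1 (TGANTCA) matched 5 (12.5%), against 9.92%, NFI (TTGGCA) 9 (22.5%), against 20.3%, and RFX (GTTGCCA) 2, against 6.25%. The cyclic AMP response element matched 2 (5%), against 1.54%, both in the Mef2d window. The CArG box of the related MADS factor SRF matched 1 (2.50%), against 1.19%, at chr3:88177621-88177920. Sp/KLF and EGR matches can overlap each other. With 40 regions, each of the 13 exact intervals included the share of all regions.

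**Figure D4:**
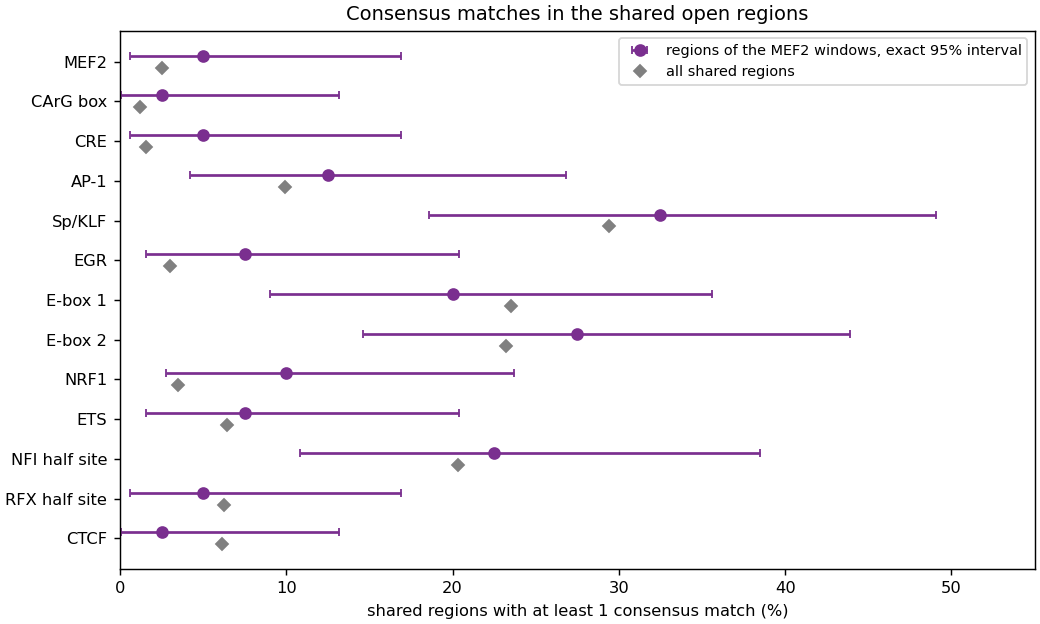
Share of shared open regions with at least 1 match of each consensus, for the 40 regions of the MEF2 windows (purple, with exact 95% binomial intervals) and for all 53644 shared regions (grey). E-box 1 and 2 are the CAGCTG and CAGATG forms; every grey point lies inside the interval of its purple one, MEF2 included (5% and 2.50%).

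Over the MEF2 windows, the log2 ratio of replicate 2 over replicate 1 had a median of 0.01 and ranged between -1.27 and 0.45. In 1 of the 40 regions the heights differed by more than 2-fold, against 1.64% of all shared regions. This was the intronic Mef2a region chr7:67287562-67287787, with 0.645 in replicate 1 and 0.267 in replicate 2. Of the peaks in the windows, 85.4% of 48 in replicate 1 and 73.7% of 57 in replicate 2 overlapped the other library, near or above the genome-wide shares given above. The tallest peak of replicate 1 alone lay in an intron of Mef2d, chr3:88144161-88144240, at 1.36. The tallest of replicate 2 alone lay downstream of Mef2d, chr3:88221581-88221800, at 1.73. In neither case did the other library list a base below 0.05.

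Genes alike in promoter height, number of distal regions and length were found by distance over these 3 measures, each standardised, among all genes open at a promoter in both libraries. The nearest to Mef2a were Lyrm4, an iron-sulfur cluster assembly gene, Tdrd3, a Tudor domain gene, and Atad2b, a bromodomain ATPase gene. Near Mef2b stood Ppp2ca, a phosphatase catalytic subunit gene, Lca5l, and Cry2, a repressor of the circadian clock. The promoter height used for Mef2b is that of the region it shares with Rfxank and Borcs8, so these 3 genes may not resemble Mef2b itself. Near Mef2c stood Aff1, for a transcription elongation factor, Gpm6b, a membrane glycoprotein gene of neurons and glia, and Arnt2, a bHLH-PAS factor gene. Mef2c had a mean promoter height of 1.44 and 7 distal regions over 163.0 kb, against 1.40 and 7 distal regions over 162.9 kb for Aff1. Near Mef2d stood Scpep1, Rps14, a ribosomal protein gene, and Chd3, a chromatin remodeller gene. The measure holds no sequence and no function.

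The listed genes that act on MEF2 proteins were nearly all open at their promoters. This list and the target lists below were written with earlier results of these data known. Their shares beside that of all genes are therefore descriptions only. Of 18 regulators, 17 (94.4%) were open at a promoter in both libraries, against 59.7% of all genes. The median height of these 17 was 5.59, against 3.00 for all genes open in both libraries. Hdac4, a class IIa histone deacetylase gene, was the tallest of them in both libraries at 16.4 and 15.7. Cdk5, a neuronal kinase gene, followed in the mean at 13.4 and 14.0, and Mapk14, a stress-activated kinase gene, stood at 11.8 and 14.4. The lowest in the mean were the calcium/calmodulin kinase genes Camk4, at 0.908 and 0.876, and Camk1, at 1.39 and 1.43. Hdac9, another class IIa deacetylase gene, had 2.03 and 1.22, below Camk1 in replicate 2. Only Hdac7, the class IIa deacetylase gene known from endothelium and thymocytes, had no promoter peak in either library.

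Target genes of MEF2 described in neurons and in muscle were then set side by side. All 10 of the neuronal list were open at a promoter in both libraries, against 59.7% of all genes, with a median height of 6.52. Jun, an AP-1 subunit gene, was the tallest in the mean at 18.5 and 16.4, and Klf6 reached 12.9 and 16.6, just above Jun in replicate 2. Bdnf, the neurotrophin gene, was the lowest at 1.36 and 1.13, and Kcna1, a potassium channel gene, reached 1.92 and 1.88. Of the 10 muscle targets, 5 (50%) were open in both libraries, near the share of all genes. The median height of these 5 was 1.11, against 3.00 for all genes open in both libraries. The tallest in the mean were Slc2a4, the insulin-regulated glucose transporter gene, at 1.37 and 1.39, and Des, for desmin, at 1.40 and 1.27. The lowest were Myl2, at 0.645 and 0.550, and Ppargc1a, at 0.740 and 0.642. Myog, Acta1, Myh6, Nppa and Mb had no promoter peak in either library. With the stricter peak lists, 2 of the 10 muscle targets and 9 of the 10 neuronal ones had one. Every called muscle target was thus below the median of all genes in both libraries, while 8 of the neuronal targets lay above it in the mean.

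**Figure D5:**
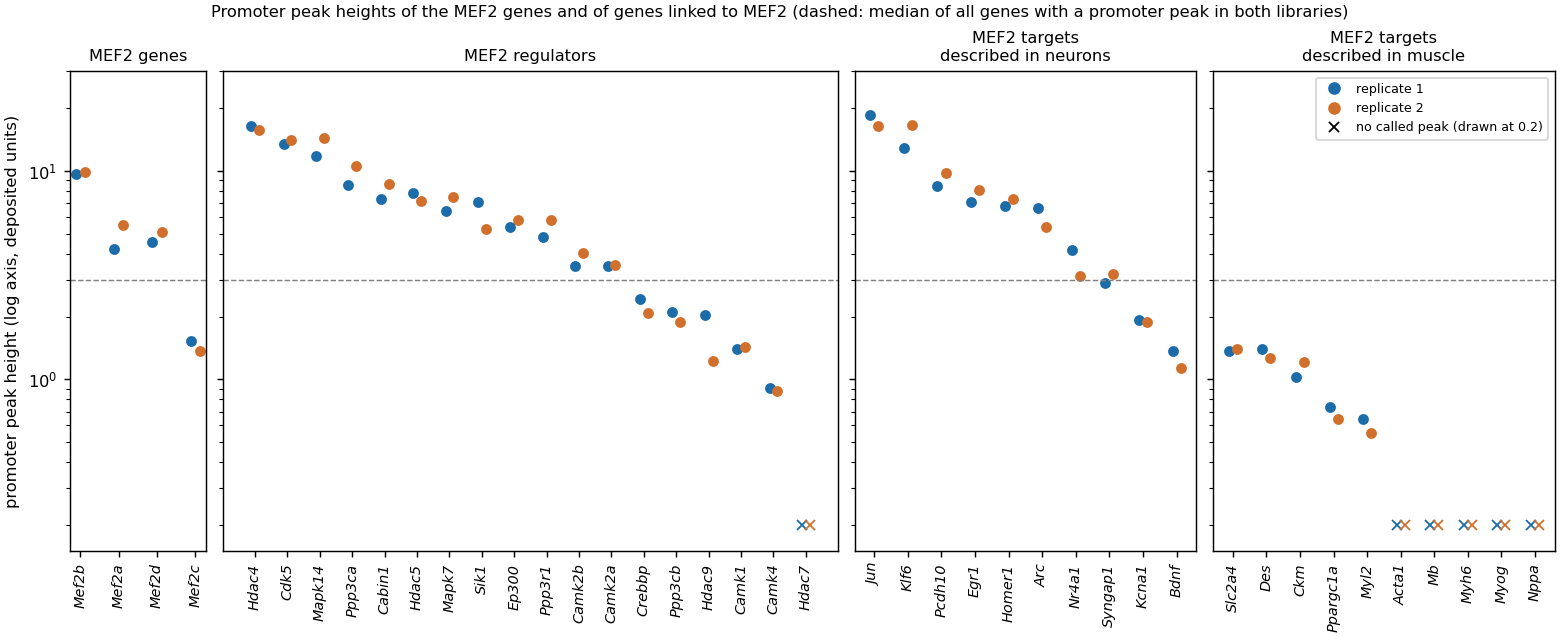
Promoter peak height (log axis) in replicate 1 (blue) and replicate 2 (orange) of the MEF2 genes, their regulators and their targets described in neurons and in muscle. Crosses mark genes with no promoter peak and the dashed line the median of all genes open in both libraries, 3.00; Mef2b, Mef2a and Mef2d lie above it and Mef2c below.

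The tissue label was set against marker genes of the cells the cortex holds. Of 7 excitatory neuron markers, 6 (85.7%) were open in both libraries, against 59.7% of all genes, and Slc17a7 had a promoter peak in replicate 2 alone. The median height of these 6 was 2.33, against 3.00 for all genes open in both libraries and 2.32 for the astrocyte markers. A list of 7 genes is too short to set this cell type apart. Of the GABAergic interneuron markers 3 of 5 were open in both, of microglia 3 of 5, of astrocytes 2 of 4 and of vascular cells 2 of 4, all near the 59.7% of all genes, so that these counts set no cell type apart. None of 3 oligodendrocyte markers (Mbp, Mag, Mog) had a promoter peak in either library. Of 6 muscle markers, Ckm alone had one. Mef2 genes are expressed in several of these cell types, and the part of each cell type in their peaks was not tested.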

How the data were processed

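DNase-seq peaks, footprints and a cut rate track of 2 libraries were analysed as 1 group. Per the deposited file descriptions, all were made per library in assembly mm10. Aligner and callers are not given in the sources used here. Peak heights are a signal value that the authors deposited on an unstated scale per library. The value column of the deposited footprints holds 0.01 throughout, read as a q-value threshold, and the deposited cut rate track lists false discovery rates, also of q-value kind, below 0.05. Each library has 2 deposited peak lists, and the longer was used.

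Peaks of both libraries that overlapped by at least 1 bp were joined into shared regions carrying the highest height of each library. Start sites of a gene closer than 500 bp formed 1 alternative promoter, in GENCODE release 21. Footprints overlapping by at least 1 bp were called shared. The rank of a promoter is the percentage of genes with a lower promoter height, among those called in that library. Consensus sequences were matched exactly on both strands, and a match was counted in a footprint when its middle base was. Python 3.11.15, numpy 2.4.6, scipy 1.17.1 and matplotlib 3.10.9 were used, and the counting steps were tested on simulated data. Read depth is unknown, so no interval for heights could be given, and values are per library or mean ± SD.

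The members and lists were chosen with earlier results of these data known. Named were all alternative promoters, the 3 tallest distal regions per gene, the tallest peak of each library alone, the 3 most alike genes, and per list the 2 tallest, the 2 lowest and those without a peak. Regions named beyond this rule were chosen after their values were seen. Alternatives were each library alone, the shorter peak list, 50% overlap, promoters of 500 and 2000 bp, flanks of 10 kb, other joining of start sites, coding transcripts only, start sites of every gene type, peaks above the median height, and a stricter MEF2 consensus. Of the markers, 1 is not reported here. Mapping of reads from the CAST parent to the reference was not tested.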

Additional observations from a re-analysis of the deposited data

How the results depend on the processing

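Of 115 alternative values, 94 stayed within the limits set (1.5 times for a count, 1 SD of the libraries for a height, the exact 95% interval for a share), 21 moved and 0 reversed. All 4 promoters had a peak in each library used except under the start-site alternative given above. Leaving out 1 library or widening promoters to 2000 bp cannot lower this count or those of the gene lists. These settings therefore do not test whether the counts hold. The mean promoter heights were the same with the shorter lists and with promoters of 500 and 2000 bp. Leaving out 1 of 2 libraries always moves a mean by less than their SD, so it does not test the heights. The values with 1 library left out are still counted among the 115. The distal count of 27 ranged between 31 and 41 with 1 library left out and was 14 with the shorter peak lists and 14 with flanks of 10 kb. The MEF2 consensus was matched in 1 to 2 regions with 1 library left out, in 1 with the shorter lists and in 1 with flanks of 10 kb. With the shorter lists, 95.8% of regions had a footprint in both libraries. Of the footprints inside the peaks of the shorter lists, 71.4% in replicate 1 and 58.3% in replicate 2 were shared. The main shares cover the whole windows, inside and outside peaks, so these are shares of a smaller set of footprints. They therefore do not test whether the main shares hold. The muscle targets with a promoter peak numbered 2 with the shorter lists and 3 with promoters of 500 bp. Apart from this change in the set of footprints, the causes were not tested. Sharing of footprints between libraries has no value with 1 library left out. Another 3 alternatives were added after seeing the data: leaving out start sites shared with another gene (3 genes), scanning 300 bp per region (2 MEF2 matches) and leaving out neighbouring promoters (85.7% with a footprint in both). No paired analysis was possible because there is 1 group. Depth limits what a missing peak means: it was not detectable here, not shown to be absent.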

Other observations

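The tallest distal region of Mef2c, chr13:83715061-83715300, had a high (weak) lowest false discovery rate for its height. This comparison was chosen after the region's values were seen, and the cut rates themselves were not compared. The region's lowest false discovery rate was 3.27e-05 in replicate 1 and 3.75e-13 in replicate 2. Among shared regions within 10% of its height, 0.0857% of 1167 in replicate 1 and 0.419% of 955 in replicate 2 had a higher (weaker) lowest rate. Most shared regions of the MEF2 windows likewise had a weaker lowest false discovery rate than most regions of like height, in each library. The exceptions in both libraries were chr8:70172241-70172500 (77.8% and 75.4%) and chr13:83481381-83481620 (78.3% and 52.9%). The Mef2d region chr3:88206303-88206380 stood lower in replicate 1, at 0.0175% of 5718, but at 3.07% of 6055 in replicate 2. The Mef2d region of greatest height, chr3:88178001-88178240, stood at 44.3% of 97 and 38.7% of 111 by the same measure. In replicate 2, the promoter region shared by Mef2b, Rfxank and Borcs8 had a stronger lowest false discovery rate than 87.5% of 464 regions of like height. In replicate 1 it stood at 46.5% of 497.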
